A study of Mus musculus with 7 samples.

Results

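Mesothelial cells were singled out among the CD45-CD24- stromal cells (SCs) of the mesenteric lymph node (mLN), the node that drains the gut, and numbered 178 of the 13197 cells that passed the quality limits (17692 cells were deposited). A cell was counted as mesothelial when it had no UMI of Pecam1, the gene of the endothelial surface protein CD31, and at least 3 UMIs in all of Msln, Upk3b, Upk1b, Lrrn4 and Krt19, with at least 2 of these 5 genes detected. A UMI (unique molecular identifier) marks a single captured RNA molecule. The measured values of these genes thus chose the cells, and they are given below as a description with no test. The cells came from untreated BALB/c mice that carried CD90.1, were kept under specific pathogen free conditions and, per the methods, were female unless stated otherwise. Ages are written D0, D10 and D24 for newborn and young mice and D56 and D300 for adults, the number being the day after birth. No age carried a genetic deletion or a treatment. Nodes were digested with enzymes, blood cells were removed by the CD45 and CD24 sort, and libraries were made with droplet 3′ chemistry. The labels list 7 samples, but the cell names do not separate the 2 libraries given for D56 or the 2 for D300, so each age was 1 sample, and the number of mice behind each was not used.

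Mesothelium is the single-layered, flat epithelium that lines the body cavities and covers the organs within them, the mesentery included. Its cells derive from mesoderm, carry keratins together with mesenchymal genes, bear microvilli, and keep the serosal surface smooth through secreted lubricants, antiproteases and fibrinolytic factors. In development the layer also serves as a source of fibroblasts and of signals to the tissue beneath it. Where in the node or its surroundings a sorted cell had been located was not measured.

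The regions just upstream of a RefSeq transcription start of 4 genes are shown because these genes belong to the rule or had the smallest adjusted p among the genes named as highest. RefSeq promoter windows on GRCm38.p6 were held here for 2 of the 5 genes of the rule, Upk3b and Lrrn4, and both were chosen for display together with Gpm6a and Krt7 from the named genes outside the rule. Each sequence is the 250 bases before the start, written 5′ to 3′ on the strand of the gene. Capitals mark GGAATG, the core letters bound by TEAD factors, or GGGCGG, the GC box bound by Sp-type factors, both searched on either strand. Gpm6a had 2 windows in the table. The one shown lies just upstream of the gene start in GENCODE and holds neither string, while the other, farther upstream, holds GGAATG. The window of Krt7 lies inside the gene as GENCODE annotates it, whose start is farther upstream than that of RefSeq.
Upk3b promoter (chr5:136038246-136038495, + strand): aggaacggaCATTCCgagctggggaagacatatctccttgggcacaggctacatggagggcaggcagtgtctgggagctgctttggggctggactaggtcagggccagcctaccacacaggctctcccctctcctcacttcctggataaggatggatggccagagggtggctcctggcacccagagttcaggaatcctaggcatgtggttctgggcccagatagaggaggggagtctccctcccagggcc
Lrrn4 promoter (chr2:132880863-132881112, - strand): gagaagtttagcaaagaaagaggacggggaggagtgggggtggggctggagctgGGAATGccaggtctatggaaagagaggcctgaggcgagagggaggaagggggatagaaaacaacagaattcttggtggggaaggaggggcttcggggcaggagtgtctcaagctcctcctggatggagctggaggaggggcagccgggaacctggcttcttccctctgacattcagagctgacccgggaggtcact
Gpm6a promoter (chr8:54954478-54954727, + strand): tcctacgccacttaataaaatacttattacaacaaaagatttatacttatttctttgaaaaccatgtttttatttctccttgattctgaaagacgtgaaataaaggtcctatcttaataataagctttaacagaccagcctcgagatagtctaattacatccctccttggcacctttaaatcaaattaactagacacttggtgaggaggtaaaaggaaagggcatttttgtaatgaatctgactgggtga
Krt7 promoter (chr15:101412153-101412402, + strand): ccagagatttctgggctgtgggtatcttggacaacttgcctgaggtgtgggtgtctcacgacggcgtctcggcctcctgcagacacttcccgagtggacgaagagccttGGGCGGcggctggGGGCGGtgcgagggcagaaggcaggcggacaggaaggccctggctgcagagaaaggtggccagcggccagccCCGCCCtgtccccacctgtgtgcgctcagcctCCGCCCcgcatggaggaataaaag

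Within windows of the 250 bases before the start, GGAATG stood in 12.6% of the 32851 promoters in the RefSeq table. It was present in both windows of the rule genes, in 4 of 13 windows of 11 of the 12 genes named below as highest in mesothelial cells, and in 4 of 16 windows of 11 of the 12 genes named as lowest. GGGCGG stood in 32.7% of all windows, in 3 of 13 of the first group and in 5 of 16 of the second. A match is a string of letters and was not tested as a binding site.

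The cells met the rule with a wide margin. Summed over the 5 genes, a mesothelial cell held a median of 45 UMIs (range 3 to 274), 169 of the 178 cells held at least 10, and all 5 genes were detected in 120 cells, 4 in 34, 3 in 18 and 2 in 6. Just inside the limit, 4 cells held 3 to 5 UMIs. Just outside it, 33 of the 8758 other SCs (Pecam1 at 0, at least 1 UMI of the fibroblast collagen gene Col1a2) held 2 UMIs of these genes, 10 held 3 or more of a single gene with a highest value of 8, 525 held 1, and 8190 held none. Levels are given as CPM, the UMIs of a gene per 1000000 UMIs summed over the cells of a class. In 177 of the 178 mesothelial cells Col1a2 itself was detected, at 2894, 3076, 1336, 680 and 663 CPM from D0 to D300. Endothelial cells, which should lack it, held 2083, 978, 717, 437 and 117 CPM, with a UMI in 493 of 556 cells at D0, so detection of Col1a2 alone is not read as expression. Among the 3655 cells with a Pecam1 UMI, 15 met the marker limits and were counted in neither class.

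Msln encodes mesothelin, a surface glycoprotein that is the classical marker of mesothelium. Its level was 1303, 672, 1372, 1172 and 212 CPM from D0 to D300 in mesothelial cells, and between 0.212 and 2.68 in other SCs. Upk3b and Upk1b encode uroplakins, membrane proteins of urothelium and mesothelium. Upk3b stood at 1873, 1531, 1465, 2472 and 1273 CPM from D0 to D300, and Upk1b at 423, 388, 863, 433 and 318 CPM. Upk3b was the steadier of these 3 genes over the ages, while Msln had its lowest values at D10 and D300.

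Lrrn4, a gene for a leucine-rich repeat membrane protein, held the narrowest range of the 5, with 241, 240, 263, 255 and 159 CPM. Krt19, a keratin of simple epithelia, had 1312, 1976, 2842, 2379 and 1591 CPM, highest at D24. Since the other SCs never exceeded 7.34 CPM for any of the 5 genes, the classes stood far apart at every age, which is what the rule selects. In endothelial cells, which should lack these genes, Msln ranged from 0.740 to 3.91 CPM and Krt19 from 1.60 to 5.55 CPM, so other SCs and endothelial cells held these genes at like, low levels.

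**Figure D1:**
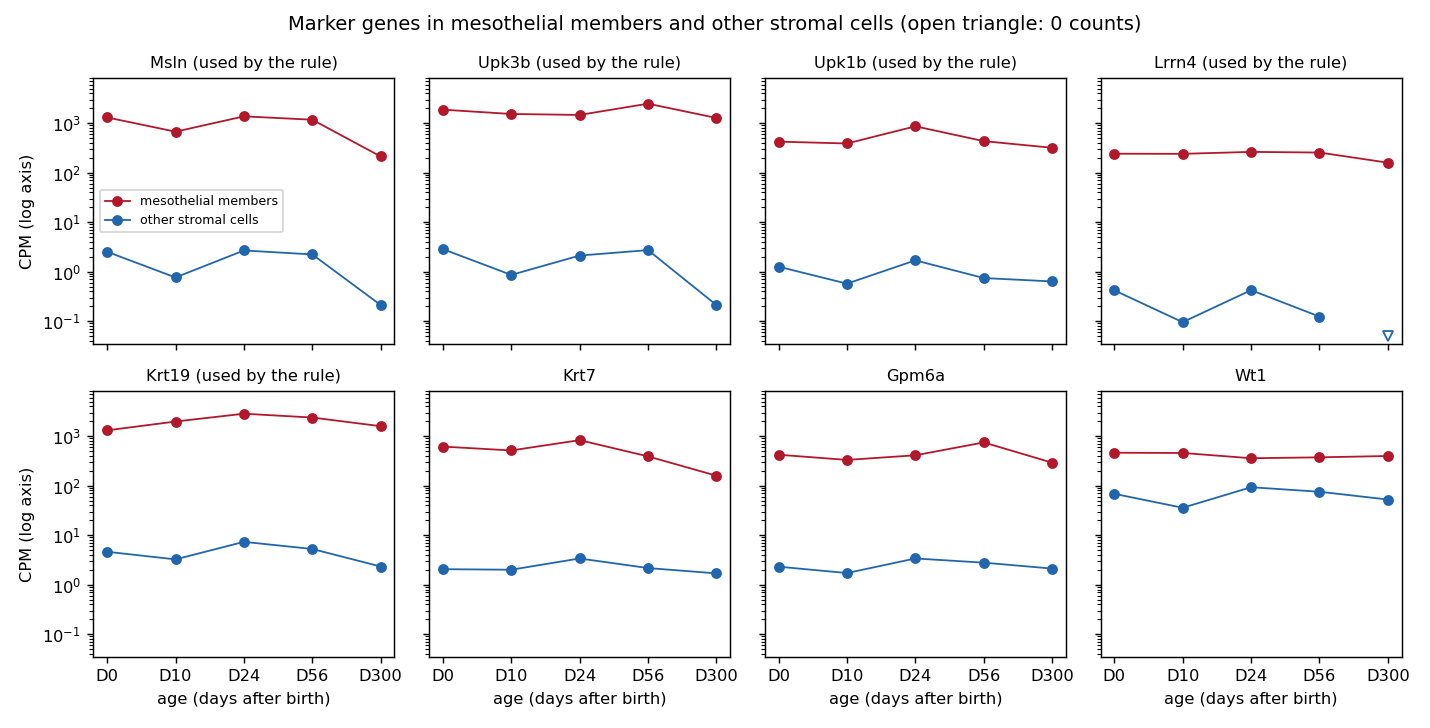
Level of 8 marker genes in CPM (log axis) against age (D0 to D300) in the summed mesothelial cells (red) and the summed other SCs (blue), 1 sum per age and class, with an open triangle for 0 counts. The first 5 genes chose the cells, while Krt7, Gpm6a and Wt1 did not, and at all 5 ages these 3 were also higher in mesothelial cells, with Wt1 the least apart (358 to 463 CPM against 35.8 to 93.0 CPM).

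There were 90, 23, 44, 17 and 4 mesothelial cells from D0 to D300. As a share of mesothelial cells and other SCs together, newborn mice (D0) had 2.86% (exact Clopper-Pearson 95% interval 2.31 to 3.51). The share was 1.61% (1.02 to 2.40) in the D10 sample and 4.41% (3.22 to 5.88) in that of D24. In the adult samples it was 0.697% (0.407 to 1.11) and 0.433% (0.118 to 1.10), for D56 and D300 in this order. D24 had the highest share and its interval overlapped only that of D0. D56 and D300 had the lowest shares, with intervals that overlapped each other and, in part, that of D10. The intervals cover counting error only, and with 1 sample per age no difference between single ages could be tested. Shares of the young ages (D0, D10 and D24) against the adult ages were not tested. Digestion, dissection of the node and the sort can set such shares, and their part in the result was not tested.

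**Figure D2:**
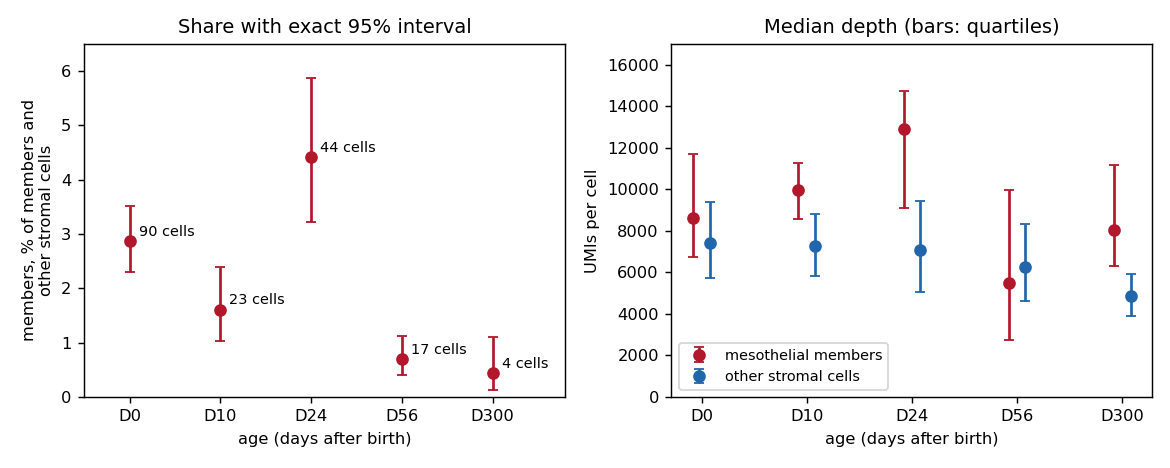
Left, mesothelial cells as a percentage of mesothelial cells and other SCs at each age, with the exact 95% interval and the number of cells; right, median UMIs per cell with the quartiles as bars. The share was highest at D24 (4.41%) and lowest at D300 (0.433%), and mesothelial cells held more UMIs per cell than other SCs at every age except D56.

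Depth moved with class and age. Mesothelial cells held a median of 8638, 9977, 12890.5, 5485 and 8039.5 UMIs from D0 to D300, against 7418, 7263, 7081, 6275 and 4850 in other SCs. Summed over cells this gave 829351, 229227, 532985, 117721 and 37720 UMIs for the mesothelial cells. After each cell was thinned to 2000 UMIs the shares were 2.58%, 1.56%, 4.61%, 0.752% and 0.622%, all within the intervals above. Y-linked UMIs were found in 14 of the 23 mesothelial cells at D10 and in none at the other ages, so the D10 cells came at least in part from males. Acinar genes of the pancreas, a neighbouring organ, summed to 789 CPM at D0 and 737 CPM at D24 in mesothelial cells (4740 and 955 CPM in other SCs) and to at most 26.2 CPM at the other ages, with 8, 3, 9, 1 and 0 of the 10 genes above 0 from D0 to D300. Their part in the results was not tested.

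To find what sets mesothelial cells apart beyond the genes of the rule, raw counts were summed per age and class and compared with edgeR's quasi-likelihood test with age as a block over D0, D10 and D24, the ages with at least 20 mesothelial cells. The sums of a class at the 3 ages served as replicates, so the test asks which differences held across ages. The difference is given as a log2 ratio, mesothelial cells minus other SCs, with its standard error (SE) and the Benjamini-Hochberg adjusted p, and a gene was called below 0.05. The cells of the classes were chosen by marker genes that were left out of the test, but genes that vary together with those markers were bound to differ, so the calls describe the mesothelial cells and are no proof of a class. Of 11489 genes tested, 933 were called higher (8.12%) and 855 lower (7.44%), 15.6% in all, and 3028 had an unadjusted p below 0.05. Without the age block, which leaves age differences in the error, 881 genes were called.

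The genes most raised included keratins and secreted or membrane proteins of epithelia. Fgfbp1, which encodes a secreted carrier of fibroblast growth factors, had 251, 279 and 792 CPM at D0, D10 and D24 in mesothelial cells against 1.39, 0.0955 and 0.423 CPM in other SCs (log2 ratio 8.86 ± 0.87 SE, adjusted p = 0.0136). It was carried by 29 of 90, 4 of 23 and 28 of 44 mesothelial cells, so the high level rested on part of the cells, and without D10 the adjusted p was 0.134. Slpi, an antiprotease of mucosal surfaces, had 273, 838 and 565 CPM against 0.841, 0.287 and 3.39 (8.56 ± 0.90, adjusted p = 0.0209). At D10 a single cell held 63.5% of its counts, and without D0 its adjusted p was 0.248.

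Keratins 7, 14 and 15, filament proteins of epithelia, were among the 12 largest rises. Krt7 had 616, 515 and 831 CPM against 2.06, 2.01 and 3.39 (log2 ratio 8.01 ± 0.23, adjusted p = 2.52e-10), and at least 1 UMI of it was present in 83 of 90, 20 of 23 and 43 of 44 mesothelial cells. Krt14 (8.29 ± 0.31) and Krt15 (8.73 ± 0.50), known from the basal layer of stratified epithelia, were patchier: Krt14 was found in 45 of 90, 3 of 23 and 17 of 44 cells. Of the 6 keratins tested, 4 were called higher (Krt7, Krt14, Krt15 and Krt17) and none lower. Krt8 and Krt18, which pair in simple epithelia, had 371, 371 and 1068 CPM and 309, 231 and 1068 CPM in mesothelial cells and at most 9.08 CPM in other SCs, yet did not pass the test (adjusted p = 0.0544 and 0.120). Both were called by DESeq2 (4.34e-34 and 9.13e-10) and by edgeR without D0. Their levels in other SCs ranged from 0.191 to 9.08 CPM over these ages, so the ratio differed widely between ages. Taking Krt7, Krt8, Krt18 and Krt19 together, 47 of 90, 13 of 23 and 37 of 44 mesothelial cells carried all 4.

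The remaining large rises were of membrane and secreted proteins. Gpm6a, a neuronal membrane glycoprotein also found in mesothelium, had 422, 332 and 411 CPM against 2.31, 1.72 and 3.39 (log2 ratio 7.29 ± 0.24, adjusted p = 6.80e-10). Bnc1 encodes basonuclin 1, a zinc-finger factor of epithelial cells, and had 66.3, 87.2 and 52.5 CPM against 0.378, 0.0955 and 0 CPM (8.15 ± 0.48). In other SCs its counts at these ages were 9, 1 and 0. Lgals2, Plet1, Fxyd3, Anxa8 and Tmem108 completed the 12, with log2 ratios from 7.36 to 8.69. Counts of other SCs for these 5 genes over the 3 ages were only 4 to 51 in all, and Plet1 rested on 5, 7 and 99 counts in mesothelial cells.

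**Figure D3:**
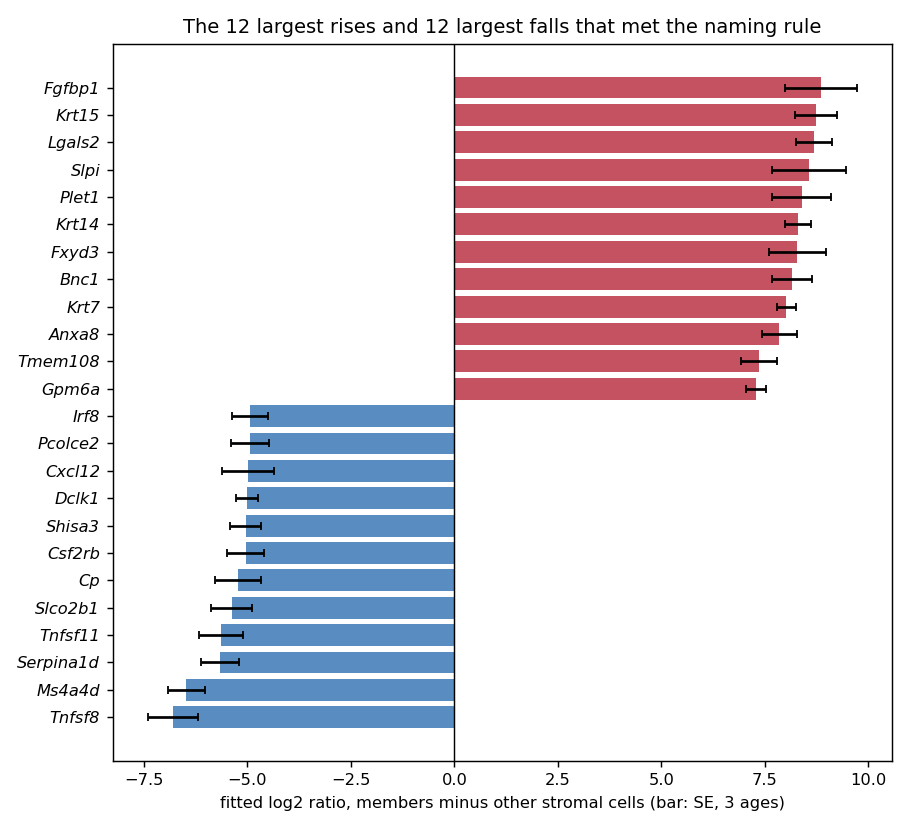
Fitted log2 ratio of mesothelial cells minus other SCs with its approximate SE for the 12 genes with the largest rise (red) and the 12 with the largest fall (blue) that met the naming rule, from the sums at D0, D10 and D24. Rises lie between 7.29 and 8.86 and falls between -4.94 and -6.80; the falls rest on few counts in mesothelial cells (1 to 4 for 10 of the 12 genes), so their exact size is loosely set.

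The genes most reduced included cytokine, chemokine and cytokine receptor genes. Tnfsf11 encodes RANKL, a cytokine that drives lymph node formation, and counted 2, 0 and 0 in mesothelial cells at D0, D10 and D24 against 44.6, 153 and 46.6 CPM in other SCs. Pooled over the 3 ages its log2 ratio was -5.85 (95% counting interval -8.90 to -3.99). Tnfsf8 (CD30 ligand) counted 0, 1 and 0 against 21.1, 101 and 133 CPM. Cxcl12, a chemokine that holds many blood cell types in tissues, was still detected at 90.4, 65.4 and 90.1 CPM but stood at 1212, 4671 and 3423 CPM in other SCs (log2 ratio -4.98 ± 0.63, adjusted p = 0.0227). The same held for Irf8 (0, 1 and 3 counts), a transcription factor of the interferon regulatory family, and Csf2rb (1, 3 and 0 counts), the common beta chain of the receptors for GM-CSF and related cytokines. In other SCs these 2 genes had 40.2 to 140 CPM and 40.5 to 202 CPM. Ms4a4d, Serpina1d, Slco2b1, Cp, Shisa3, Dclk1 and Pcolce2 made up the rest, each with 11 or fewer counts in mesothelial cells and 1583 to 9314 counts in other SCs.

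**Figure D4:**
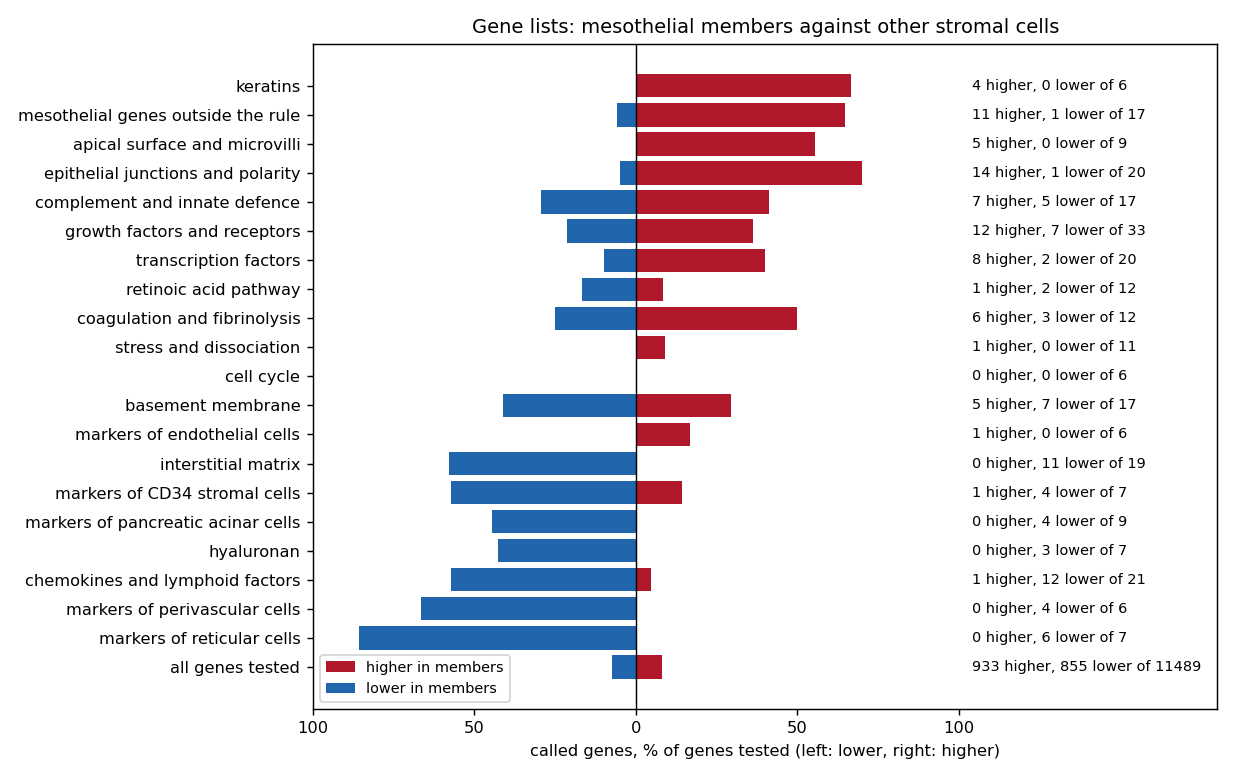
For each gene list with at least 6 genes tested, the percentage of tested genes called higher (red, to the right) or lower (blue, to the left) in mesothelial cells, with the counts at the right edge. Epithelial lists lie mostly to the right (14 of 20 junction genes higher) and reticular, perivascular and chemokine lists mostly to the left (6 of 7, 4 of 6 and 12 of 21 lower), against 8.12% higher and 7.44% lower over all genes.

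Genes too low for the test are left out of each list, among them 3 of 9 keratins, 2 of 11 apical, 4 of 16 retinoic acid, 4 of 21 innate and 6 of 26 transcription factor genes. Of 17 tested mesothelial genes outside the rule (19 in the list), 11 were called higher, 1 lower and 5 were not called, with a median log2 ratio of 6.49 against -0.08 over all genes tested. DESeq2 called 16 of them higher and 1 lower. The study named several of them (Krt7, Krt8, Krt18, Gpm6a, Lgals7 and Nkain4 among others) from these same samples, so the list is not independent evidence. Cav1, which encodes caveolin 1 of membrane pits, stood at 1111, 1313 and 1383 CPM against 51.3, 36.0 and 39.2 (log2 ratio 4.86 ± 0.20, adjusted p = 5.67e-09). Wt1, the transcription factor that marks the developing mesothelium, had 463, 458 and 358 CPM against 68.5, 35.8 and 93.0 (2.72 ± 0.31, adjusted p = 0.000894). It was present in 83 of 90, 23 of 23 and 42 of 44 mesothelial cells but also in 965 of 3054, 262 of 1409 and 338 of 953 other SCs, and in 79 of 556, 28 of 517 and 57 of 684 endothelial cells. Muc16, the gene of the surface mucin CA125, was low but sharply divided, at 19.3, 21.8 and 33.8 CPM with 1 count among all other SCs of the 3 ages.

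Nkain4 and Lgals7 were high in mesothelial cells at all ages and yet not called (adjusted p = 0.220 and 0.0536), though both were called without D0. For Nkain4, a gene for a protein that binds the sodium pump, other SCs held 140 CPM at D0, 24.2 at D10 and 15.8 at D24, and 1680 of 3054 of them carried a UMI at D0 against 80 of 953 at D24. Endothelial cells went the same way, at 62.2, 8.88 and 4.32 CPM with a UMI in 153 of 556 cells at D0 and 19 of 684 at D24, and the part of free RNA in these levels was not tested. In mesothelial cells it was at 567, 1021 and 1167 CPM. The ratio thus widened with age, with a lower level in other SCs and a higher one in mesothelial cells. The list's one lower gene was Tcf21, a factor of the mesenchyme derived from such epithelia, at 24.1, 17.4 and 16.9 CPM against 74.8, 40.5 and 83.6 (log2 ratio -1.83 ± 0.28, adjusted p = 0.000467).

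Of 29 genes of epithelial junctions and polarity, 9 were too low to be tested, 14 of the other 20 were higher and 1 lower, and the median log2 ratio of the 20 was 2.51. Cldn15, a claudin that forms cation pores in tight junctions, had 230, 301 and 313 CPM against 3.41, 4.87 and 16.4 (5.34 ± 0.45, adjusted p = 0.000902). F11r, which encodes the junctional adhesion molecule JAM-A, had 160, 240 and 390 CPM against 25.1, 85.9 and 69.6 (2.19 ± 0.25). Cxadr, another junctional adhesion protein, Cldn10 and the protease inhibitor gene Spint2 were also called higher, at log2 ratios of 4.36, 2.04 and 2.83. Cdh1, the E-cadherin gene of most epithelia, was at 0 counts in the mesothelial cells of every age, as were Cldn4, Vil1, Fabp2 and Krt20 of the 12 markers of gut and duct epithelium. Of these 12, 6 were above 0 at D0, 2 each at D10, D24 and D56 and 1 at D300, with a summed level of 17.4 to 53.0 CPM (18.2 to 85.6 CPM in other SCs), and 3 cells at D0 held at least 2 of them. Lgals4 was at 4.82, 8.72 and 53.0 CPM at D0, D10 and D300, and their part in the results was not tested. Epcam, an epithelial adhesion gene, was called higher (adjusted p = 0.0407, and 0.305 without D10), with a UMI in 14 of 90, 2 of 23 and 11 of 44 cells.

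On the apical side, 5 of 9 tested genes of microvilli and the cell surface were higher and none lower. Ezr (ezrin, which ties microvilli to actin) had 335, 183 and 385 CPM against 14.9, 8.79 and 9.88 (log2 ratio 4.67 ± 0.23, adjusted p = 2.14e-08). Slc9a3r1, whose product binds ezrin, had 640, 602 and 495 CPM against 28.5, 37.8 and 22.7 (4.26 ± 0.20). Podxl, the gene of the sialomucin podocalyxin, and Bcam, a laminin receptor, followed with 6.49 ± 0.27 and 3.49 ± 0.30. All 5 genes were higher in the sums of each of the 3 ages.

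Antigen presentation and complement genes divided the innate list, of which 7 of 17 were higher and 5 lower. Cd74, the invariant chain that escorts MHC class II molecules, stood at 392, 3490 and 2426 CPM in mesothelial cells against 46.8, 211 and 164 (log2 ratio 3.62 ± 0.20, adjusted p = 6.58e-08). The class II genes H2-Aa (122, 659 and 278 CPM against 6.27, 15.6 and 7.62) and H2-Ab1 (170, 1051 and 599 CPM against 28.0, 124 and 67.3) were called too, at 4.90 ± 0.24 and 2.90 ± 0.18. The signal was spread over cells, since H2-Aa was detected in 23 of 90, 18 of 23 and 33 of 44 mesothelial cells. Markers of blood cells were nearly absent beside it: of 7 genes, 5 were at 0 at D0 and all 7 at D10, D24 and D56, with a summed level of 3.62 CPM at D0 (5.54 to 16.4 CPM in other SCs over all ages), and at D300 a count of 1 gene gave 26.5 CPM.

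C2 and Cfb, 2 genes of the complement convertases, were called higher at 1.72 ± 0.16 and 2.18 ± 0.21. C4b, C1s1, C1ra and the complement regulator Cd55 were called lower, as was the alarmin Il33 (-1.93 ± 0.20). C4b and C1ra lost the call without D10 (adjusted p = 0.0579 and 0.173), and C1ra also without D24 (0.0770) and by DESeq2 (0.141). Against other SCs with at least 2 Cd34 UMIs neither was called, with C4b at a log2 ratio of -0.08 (adjusted p = 0.921) and C1ra at -0.44 (0.101). Cd59a, another complement regulator, was called higher (1.37 ± 0.30, adjusted p = 0.00553). C3, the central complement protein, stood at 1294, 1789 and 3426 CPM against 252, 1798 and 2580 and did not pass (adjusted p = 0.582). At D0 it was thus higher in mesothelial cells and at D10 the levels were close.

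In the list of coagulation and fibrinolysis genes, the latter used by mesothelium to clear fibrin from serosal surfaces, 6 of 12 were higher and 3 lower. Plat, the gene of tissue plasminogen activator, had 189, 366 and 561 CPM against 156, 93.0 and 234 (log2 ratio 1.11 ± 0.27, adjusted p = 0.0277, and 0.0639 without D10). Plaur, the urokinase receptor, and Anxa2 and S100a10, whose products bind plasminogen at the cell surface, were higher at 2.44 ± 0.30, 1.80 ± 0.20 and 0.89 ± 0.18. Against other SCs with at least 2 Cd34 UMIs, Plat (0.51, adjusted p = 0.0971) and S100a10 (0.28, adjusted p = 0.203) were not called, and Plat also lost the call without TMM scaling (0.0750) and without the cell limits (0.101). The anticoagulant receptor genes Thbd (thrombomodulin) and Procr were higher at 1.37 ± 0.29 and 1.27 ± 0.21, but not called without the cell limits (adjusted p = 0.0574 and 0.388). In contrast, the protease and coagulation inhibitor genes Serpine2, Tfpi and Tfpi2 were lower, at -2.11, -0.84 and -2.09, with Tfpi not called without D10 or without D24 (adjusted p = 0.0852 and 0.175).

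The matrix genes showed a different collagen IV set. Of 17 tested basement membrane genes, 5 were higher and 7 lower. The main collagen IV chains Col4a1 and Col4a2 were lower in mesothelial cells (30.1, 21.8 and 107 CPM against 273, 381 and 541 for Col4a1, log2 ratio -3.03 ± 0.28; -3.10 ± 0.23 for Col4a2). Col4a5 and Col4a6, chains of a rarer collagen IV network, were higher, with 56.7, 100.3 and 76.9 CPM against 7.40, 3.82 and 7.34 for Col4a5 (3.52 ± 0.33) and 7, 7 and 5 counts for Col4a6 (5.19 ± 0.96, adjusted p = 0.00295). Nid1 was lower (-2.27 ± 0.19) and its relative Nid2 higher (1.65 ± 0.33, adjusted p = 0.0179), so both gene pairs went opposite ways. These directions held under every scaling tried.

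Interstitial matrix was reduced, with 11 of 19 genes lower and none higher (median log2 ratio -0.64), against 9 lower and 1 higher by DESeq2. Lum, which encodes the collagen-binding proteoglycan lumican, had 303, 301 and 129 CPM against 2700, 3541 and 2736 (-3.74 ± 0.25, adjusted p = 6.47e-06). Postn (periostin) had 222, 61.1 and 43.2 CPM against 1981, 2249 and 1328, and Fn1 (fibronectin) 169, 218 and 171 CPM against 371, 798 and 1320. Both were called (adjusted p = 0.0178 and 0.0222), but not without D10 (0.0884 and 0.315). Col1a1 was only modestly lower (-0.62 ± 0.15, adjusted p = 0.0127, and 0.232 without D24), and Col3a1 was not called (adjusted p = 0.311), with 7659, 11020 and 5655 CPM in mesothelial cells. Collagen I and III transcripts were thus abundant in the sums of both classes. Of the hyaluronan genes, Has2 had 0 counts in the mesothelial cells of all 5 ages (6.06 to 30.0 CPM in other SCs), Cd44 (-1.58, but -0.57 and adjusted p = 0.549 without the cell limits) and Vcan were lower, and Has1 was not called, at 195, 13.1 and 623 CPM against 98.8, 30.9 and 491.

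Chemokines and lymphoid factors were reduced in 12 of 21 tested genes and raised in 1. Ccl19 and Ccl21a guide T cells and dendritic cells. Ccl19 stood at 48.2, 56.7 and 16.9 CPM in mesothelial cells against 692, 1532 and 741 (log2 ratio -4.60 ± 0.30) and Ccl21a at 102, 523 and 398 CPM against 1428, 19432 and 17198 (-4.90 ± 0.44, adjusted p = 0.00316, and 0.108 without D10). Vcam1, an integrin ligand, and Il7, a cytokine for lymphocyte survival, were lower at -3.21 ± 0.24 and -4.09 ± 0.50. The one gene that rose, Tnfrsf11b, encodes osteoprotegerin, the soluble decoy receptor of RANKL. It had 327, 506 and 745 CPM against 16.5, 8.12 and 40.4 (4.71 ± 0.38, adjusted p = 0.000381) and was present in 52 of 90, 20 of 23 and 38 of 44 mesothelial cells, whereas the RANKL gene Tnfsf11 fell as described above. Of the reticular cell markers, 6 of 7 were lower, with a summed level of 291, 2508 and 1002 CPM against 2738, 22848 and 19705 at D0, D10 and D24. In droplet data free RNA can give a low level of abundant genes in all cells, and its part in the remaining counts was not tested.

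Of 33 growth factors and receptors, 12 were higher and 7 lower. Igfbp6 and Igfbp5 bind insulin-like growth factors. Igfbp6 had 1021, 2482 and 4071 CPM against 187, 166 and 544 (log2 ratio 3.02 ± 0.25, adjusted p = 3.45e-05), Igfbp5 rose equally (3.02 ± 0.26), and Igfbp2 followed at 3.43 ± 0.26 (2.55 and adjusted p = 0.190 without the cell limits). The fibroblast growth factor genes went both ways. Fgf1 had 143, 393 and 477 CPM against 7.40, 8.98 and 11.3 (4.98 ± 0.25), Fgf9 had 61.5, 96.0 and 52.5 CPM against 1.22, 0 and 1.27 (6.24 ± 0.77), and Fgf7, by contrast, counted 1, 0 and 0 against 14.2 to 51.0 CPM.

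Ligands of other families rose as well, among them Bmp4 (2.25 ± 0.23), Wnt5a (0.85 ± 0.22, adjusted p = 0.0710 without D10 and 0.0989 without D24), Pdgfc (3.66 ± 0.40) and Rspo1, an enhancer of WNT signals, with 285, 419 and 584 CPM against 37.7, 82.2 and 83.7 (2.65 ± 0.19, adjusted p = 7.26e-07). The receptor genes Pdgfra and Pdgfrb, typical of fibroblasts and mural cells, were lower at -4.04 ± 0.36 and -3.02 ± 0.49, so the ligand Pdgfc and these receptors differed in direction. Vegfa and Vegfc, growth factors for blood and lymphatic vessels, were both lower at -2.98, Vegfa not without D10 (adjusted p = 0.105). Ptgis, the prostacyclin synthase gene, had 534, 650 and 1116 CPM against 105, 45.3 and 217 (2.77 ± 0.30), and Ptgs1 (cyclooxygenase 1), which acts before it in the same route, was higher at 2.52 ± 0.23. The VEGF receptor gene Kdr was the 1 endothelial marker of 6 called higher, at 56.7, 43.6 and 114 CPM against 7.36, 4.59 and 7.48, while Flt1 was at 0 at these ages and Cdh5 did not pass 5.63 CPM. Egfl7 stood at 41.0, 39.3 and 41.3 CPM against 33.7, 49.7 and 43.8. Over the 7 endothelial markers, of which 5, 4 and 5 were above 0, the summed level was 107, 91.6 and 169 CPM against 62.7, 73.0 and 81.3 in other SCs. At least 2 of these genes were found in 10.0%, 8.70% and 31.8% of mesothelial cells and in 4.68%, 3.76% and 5.04% of other SCs, and their part in the results was not tested.

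Among transcription factors of mesothelium and the mesoderm of the gut, 8 of 20 were higher and 2 lower. Besides Wt1 and Bnc1 these were Gata6 (186, 244 and 105 CPM against 116, 82.1 and 46.2, log2 ratio 1.07 ± 0.20), Gata5 (5.12 ± 1.07), Isl1 (3.67 ± 0.54, adjusted p = 0.106 without D10), Hand2 (1.84 ± 0.29), Klf4 (1.72 ± 0.34) and Meis2 (0.90 ± 0.21). Klf4 was not called without the cell limits (0.83, adjusted p = 0.663), with all 5 ages (0.58, adjusted p = 0.775) or without TMM scaling (adjusted p = 0.0753). Nr2f2 (adjusted p = 0.0556 without D0) and Tcf21 were lower. In the retinoic acid list Aldh1a1 was higher (1.44 ± 0.32), Aldh1a3 was lower (adjusted p = 0.0630 without D24), and edgeR did not call 9 of 12 genes, while DESeq2 called 2 higher and 2 lower. Aldh1a2, which makes retinoic acid in mesothelium, had 181, 61.1 and 69.4 CPM against 3.87, 1.62 and 53.2 (adjusted p = 0.434), and was called by DESeq2 (log2 ratio 3.96, adjusted p = 3.57e-05) and by edgeR without D24, so its ratio narrowed at D24, where 128 of 953 other SCs and 28 of 684 endothelial cells held a UMI. None of the 6 cell cycle genes was called by edgeR (1 had an unadjusted p below 0.05) or by DESeq2. Of 11 genes of stress and tissue dissociation, 1 was called higher and none lower. Beside this and the retinoic acid list, 8.12% of all genes tested were called higher and 7.44% lower. The 1 higher stress gene was Fosb, an immediate early gene, at 531, 951 and 685 CPM against 340, 286 and 502 (0.88 ± 0.23, adjusted p = 0.0246, and 0.118 without D10), and it stood at 0.077 (adjusted p = 0.973) without the cell limits.

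Since the other SCs mix several kinds, the mesothelial cells were also set against the 2027, 407 and 444 other SCs of D0, D10 and D24 with at least 2 UMIs of Cd34, a choice made after the data were seen. Cd34 is a surface sialomucin of progenitor-like and adventitial SCs, and between mesothelial cells and all other SCs it was not called (445, 550 and 503 CPM against 532, 233 and 372, adjusted p = 0.337). It was called higher without D0 (log2 ratio 0.77, adjusted p = 0.00449) and with all 5 ages (0.69, adjusted p = 0.0130). It was found in 81 of 90, 23 of 23 and 43 of 44 mesothelial cells and in 2446 of 3054, 676 of 1409 and 625 of 953 other SCs. Against Cd34 cells 1546 of 10042 genes were called (15.4%), 862 higher (8.58%) and 684 lower (6.81%), and 1348 of them were also called against all other SCs. Enpp2, the autotaxin gene of reticular cells, turned from a log2 ratio of -0.36 against all other SCs to 1.44 against Cd34 cells, called in neither. Without D10 it was called lower against all other SCs (-1.09, adjusted p = 0.00664). The CD34 SC markers Pi16 and Dpep1 were lower against all other SCs, at -2.04 ± 0.26 and -4.27 ± 0.40. In all, 4 of 7 markers of CD34 SCs were lower, with Anxa3 the 1 higher (1.28, but 0.59 and adjusted p = 0.489 against Cd34 cells).

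Mesothelial cells of different ages were compared with those of D0, the age with most cells. With 1 sample per age these are ratios with counting intervals and no test. Over 3437 genes with at least 50 CPM and 10 counts on the higher side, the median size of the log2 ratio at D10 was 0.34 in mesothelial cells and 0.21 in other SCs. Of these genes 212 (6.17%) were at a log2 ratio of 1 or more and 205 (5.96%) at -1 or less. At D24 the median was 0.43 against 0.32 over 3452 genes, with 327 (9.47%) and 304 (8.81%) past these limits. The mesothelial sums are smaller and noisier than those of other SCs, so the larger medians are no sign of a larger change.

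The fetal growth genes H19 and Igf2 were far lower at D10 and D24 than at D0. H19, an imprinted noncoding RNA, went from 935 counts in 80 of 90 cells at D0 (1127 CPM) to 13 counts in 5 of 23 cells at D10 and 0 counts at D24, a log2 ratio of -7.65 or less against a floor of 3 counts. In other SCs the log2 ratio at D24 was -5.68. Igf2 went from 67.5 CPM at D0 to 4.36 CPM at D10 and 0 at D24. Nnat, another imprinted gene, had 299 counts at D0 and 1 at D10 (log2 ratio -6.37, interval -11.7 to -3.88), against -2.57 in other SCs. Dkk2, a modulator of WNT signals, went from 77 counts at D0 to 1 at D24 (-5.63, interval -11.0 to -3.11), with -2.54 in other SCs. Both classes thus moved the same way at these genes.

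Cycling genes were likewise lower after D0. Birc5, needed for cell division, had 99 counts at D0, 4 at D10 and 1 at D24 (log2 ratio at D24 -5.99, interval -11.3 to -3.48, other SCs -3.68). At D10 2810417H13Rik, a gene linked to DNA replication, was down to 1 count from 120. The share of mesothelial cells with at least 2 UMIs over 6 cell cycle genes after thinning to 2000 UMIs was 10.0% at D0 (9 of 90, exact 95% interval 4.68 to 18.1), 4.35% at D10 (1 of 23, 0.110 to 21.9) and 0 of 44 at D24 (0 to 8.04; 3 counts of the total would be 6.82%). Other SCs had 9.23%, 4.62% and 0.951%. Without thinning the values were 23.3%, 4.35% and 2.27% in mesothelial cells and 19.3%, 10.1% and 2.62% in other SCs. At no age did the intervals of the classes separate.

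**Figure D5:**
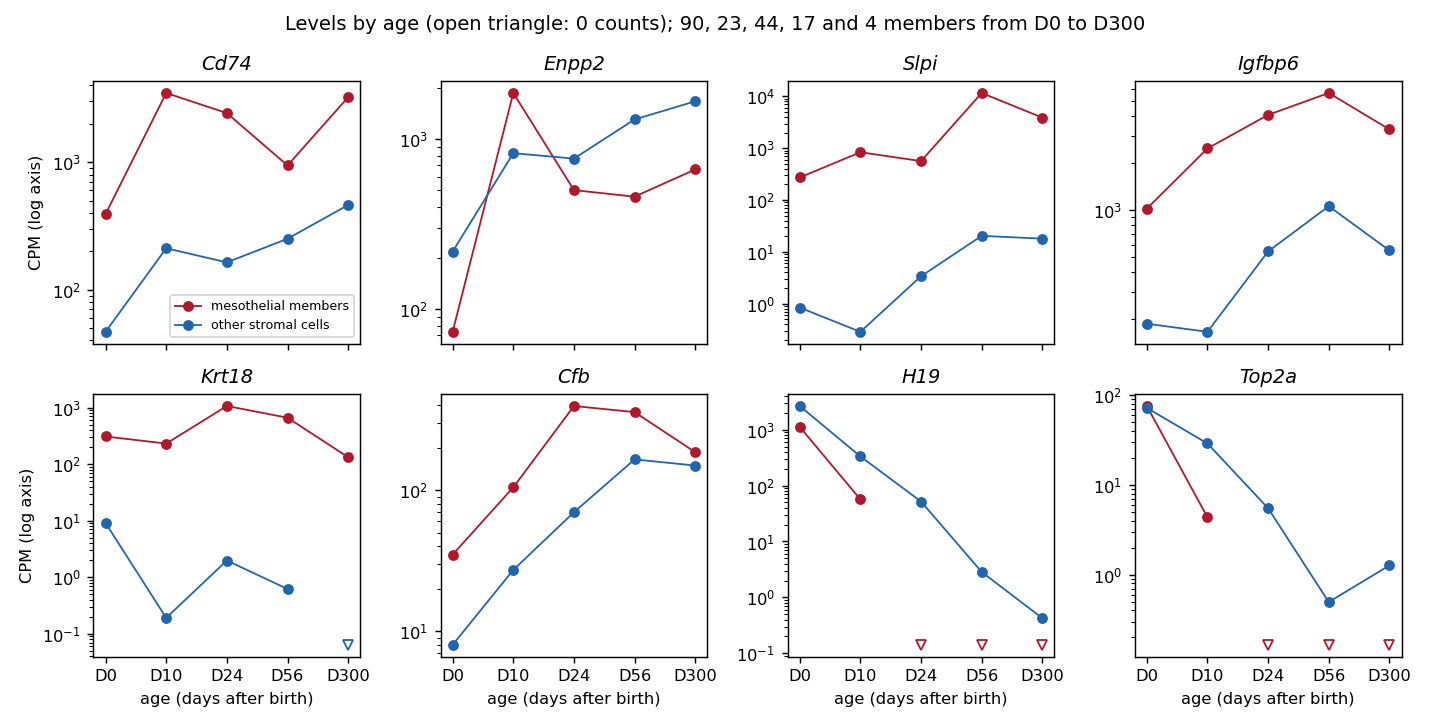
Level of 8 genes in CPM (log axis, scaled per gene) against age in the summed mesothelial cells (red) and other SCs (blue), 1 sum per age and class, with an open triangle for 0 counts. Cd74 and Igfbp6 were higher in mesothelial cells at every age, while Enpp2 was higher in them at D10 only. H19 had 0 counts in mesothelial cells from D24 on, and the D300 points rest on 4 mesothelial cells.

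Several immune genes stood higher at D10 than at D0. Cd74 went from 392 to 3490 CPM, a log2 ratio of 3.15 (interval 2.97 to 3.35) against 2.18 in other SCs, and the cells with a UMI went from 30 of 90 to 21 of 23. H2-Aa and H2-Ab1 were higher by 2.44 and 2.63. Enpp2 went from 73.6 to 1867 CPM at D10 (4.67, interval 4.28 to 5.08), spread over 19 of 23 cells, with 1.92 in other SCs. Igfbp3 was at 94.0, 1466 and 24.4 CPM at D0, D10 and D24, highest in the D10 sample, where 14 of 23 cells carried it. Its mean over these ages was 528 CPM in mesothelial cells and 455 CPM in other SCs. Egr4, an immediate early gene, had the largest log2 ratio at D10 (7.06), but all 37 counts came from 1 cell. Ddx3y, a Y-linked gene, went from 0 counts at D0 to 17 at D10, where male cells were noted above. The pancreatic gene Clps went from 129 counts to 1, along with the other acinar genes (its log2 ratio was -5.16 in mesothelial cells and -8.52 in other SCs).

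At D24 genes differed from D0 in both directions. Krt8 and Krt18 were higher by 1.52 (interval 1.32 to 1.73) and 1.79 (1.57 to 2.01) over D0 in mesothelial cells, where other SCs had -1.67 and -2.20 at levels near background. Krt19 and Upk1b, genes of the rule, were at 1.12 and 1.03. Cfb was higher by 3.49 (2.93 to 4.11), with 41 of 44 cells carrying it at D24 against 15 of 90 at D0, and by 3.12 in other SCs. Plet1 went from 5 to 99 counts (4.95, interval 3.67 to 6.60), Mnda, an interferon-inducible gene, from 1 to 29 counts, and Cd14, a receptor for bacterial lipopolysaccharide, from 2 of 90 cells to 21 of 44. Mnda and Cd14 were higher in other SCs too, by 4.15 and 2.66. Igfbp6 was higher by 2.00 (1.88 to 2.11) and Fgf1 by 1.73, while the matrix genes Col1a1 and Eln stood at -1.19 and -1.71, with -1.12 and -1.68 in other SCs.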

How the data were processed

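Droplet 3′ libraries of CD45-CD24- mLN cells of 5 ages were analysed. The authors processed reads with Cell Ranger 2.0.0 (STAR is also named in the submitters' processing notes, with Seurat 2.3.3 for later steps) on mm10 and deposited a matrix of UMI counts, whole numbers without normalization, of 27998 genes by 17692 cells. The study's quality limits (1000 to 4600 detected genes, at most 4.5% mitochondrial UMIs) were not yet applied and left 13197 cells, fewer than the study states for the same limits. Scrublet (scanpy 1.11.5) marked 72 cells (0.407%), too few to have worked, so no doublet was removed, and 13 mesothelial cells lay in the top 5% of scores. Of 239 cells that met the marker rule before the limits, 61 were lost to them. Cell names hold running numbers in place of barcodes, so cell barcodes shared between libraries could not be counted. No pair of cells had identical counts.

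Counts were summed per age and class and tested with edgeR 4.0.16 (TMM, filterByExpr, glmQLFit robust, age block, R 4.3.3). The spread is that between 3 ages with 1 sample each, not between separate animals. DESeq2 1.42.0, other scalings, filters, cell rules and comparison cells, and leaving out each age were alternatives. On data simulated for this comparison (11158 genes), 75 of 96 genes changed by a log2 ratio of 2 were called and 28 of 96 changed by 1. Named genes were called, had a log2 ratio of at least 1 in size, the same direction at all 3 ages and 50 CPM in the higher class (603 genes, of which the 12 largest each way are named); list genes were the most abundant called and uncalled ones, and further list genes were named after their values were seen. Members, lists and genes were chosen with earlier results of these data known. Ratios of CPM carry exact conditional 95% intervals. Gene positions and promoters refer to GRCm38. The planned tests of early against adult ages were not run, since no adult age reached 20 mesothelial cells.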

Additional observations from a re-analysis of the deposited data

Results flagged for a closer look

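Mesothelial cells of D56 and D300 were too few (17 and 4) for the class test, and their values are given here because several genes named from the younger ages were again far above the level of other SCs, with more than 3 counts each. No difference was tested.

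At D56, Slpi stood at 11655 CPM (20.4 in other SCs), Fgfbp1 at 1758 (2.04), Gpm6a at 748 (2.79), Krt7 at 391 (2.17), Fxyd3 at 263 (0.805) and Plet1 at 119 (0.124). Krt14 and Anxa8 were both at 59.5 CPM (0.310 and 0.434), Bnc1 at 51.0 (0.186) and Lgals2 at 42.5 (0 in other SCs). Krt15 had 0 counts at D56. Slpi was spread over 15 of 17 cells, with 32.1% of its counts in 1 cell, and Fgfbp1 over 15 of 17.

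At D300, Slpi was at 3897 CPM (18.0 in other SCs), Fgfbp1 at 1007 (0.423), Gpm6a at 292 (2.12), Krt7 at 159 (1.69), Fxyd3 at 133 (0 in other SCs) and Bnc1 at 106 (0 in other SCs). Krt14, Krt15, Plet1 and Anxa8 had 0 counts at D300. In 1 of the 4 cells lay 79.6% of the Slpi counts. The same age shows 95.1% of the counts of the reticular gene Ccl21a, 712 UMIs, in 1 cell, which sets the Ccl21a level of 19857 CPM in mesothelial cells at D300 near that of other SCs (23692 CPM).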

How the results depend on the processing

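The 17 alternatives for the class comparison called between 1236 and 2431 genes against 1788, apart from the fit without the age block, which called 881 (867 of them shared). Leaving out each age in turn gave 1457 to 1781 calls. Of 402 combinations of the 24 named genes with an alternative, 395 kept direction and call, 7 kept only the direction and none reversed. Of 1832 combinations for the 109 list genes, 1667 kept direction and call, 123 lost the call, 36 gained one and 6 reversed. Of those 7, 6 concern Fgfbp1 (without D10, adjusted p = 0.134), Slpi (without D0, 0.248; without the filter on low counts, 0.0823), Cp and Pcolce2 (without the age block, 0.0523 and 0.178) and Cxcl12 (without the filter on low counts, 0.0560), and the cause was not tested. The other was Cxcl12 against a narrower choice of other SCs, which is not described here. Log2 ratios changed sign for Enpp2 (0.30 without the age block, 1.44 against Cd34 cells, -1.09 to 0.24 over the fits without 1 age), Has1 (-0.52 without the cell limits, -0.21 with all 5 ages) and Fosb (-0.048 with all 5 ages). Further lost calls were of Fn1 (adjusted p = 0.117 without the top doublet scores, 0.150 against Cd34 cells), Igfbp2 (0.122), Bmp4 (0.0673), Procr (0.0697) and Ccl21a (0.0620) with all 5 ages, Col1a1 (0.0708), Tfpi (0.0977), Wnt5a (0.0560), Nr2f2 (0.0534) and Fosb (0.0573) by DESeq2, Gata5 (0.0507) without the cell limits, and Epcam without TMM (0.0559). The Cd34 cells and all 5 ages were chosen after the data were seen. No adjusted split of higher and lower calls moved by over 10 percentage points with the scaling.

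The cycling share at D0 was 23.3% with 1 UMI as the limit and 23.3% without thinning. Shares of mesothelial cells stayed within their intervals under all alternatives. Egr4 at D10 was at most 3.54 without the top doublet scores, where its count was 0 and the floor of 3 counts was used, and Birc5 at D24 -3.37 without the cell limits. The age block pairs both classes of each age. By replicate number, no paired analysis was possible because the labels' replicate numbers of D56 and D300 are not carried by the cell names. Tests of early against adult ages and their alternatives were not run for lack of cells. Depth limits D300 most, with 37720 UMIs in 4 cells.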
